A study of Mus musculus with 16 samples.

Results

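Enterochromaffin (EC) cells of the villus were compared with EC cells of the crypt, in 4 villus EC and 4 crypt EC libraries of a series of 16, chosen by sample title alone. All 20072 genes of the deposited expression table entered, and 13190 passed a filter on low values and were tested. Every library came from untreated mice of 8 to 16 weeks with the Tph1-CFP genotype, a reporter in which cyan fluorescent protein follows the gene for the serotonin-synthesising enzyme. Crypt and villus fractions of the whole small intestine were dissociated and sorted, CFP-positive cells being EC cells and CFP-negative cells the other epithelial cells (here epi, 4 crypt and 4 villus libraries), with 5000 cells pooled in each library. Duodenum, jejunum and ileum were not kept apart, so a villus library pools EC cells from the length of the gut. The design text speaks of 4 mice or samples per group and the labels used here give neither strain nor sex, so p-values measure the spread between libraries, which may be partly technical.

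EC cells are the most abundant endocrine cells of the gut epithelium. They make serotonin from tryptophan by way of Tph1 and Ddc, load it into dense granules through vesicular monoamine transporters, and store it with chromogranins and peptide hormones. Like other epithelial cells they are born in the crypt, from progenitors that transiently express Neurog3, and move up the villus before they are shed. Along that path a Wnt-rich crypt gives way to a villus rich in bone morphogenetic protein (BMP), and BMP signalling is known to change which peptides an endocrine cell makes, with tachykinins typical of crypt EC cells and secretin of villus EC cells.

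The sequences just before the start of 4 genes are printed because these genes stand for the opposite directions of the comparison: Sct and Cck encode hormones that were higher in villus EC cells, while Ucn3 (a peptide) and Slc18a2 (a monoamine transporter) were lower. Each is the 250 bases before the RefSeq start on GRCm38.p6, written 5′ to 3′ on the gene's own strand, and 0 of the GENCODE vM21 exons overlap any of them. Capitals mark E-box letters, CAGATG or CAGCTG, read on both strands, which are the kind of site that basic helix-loop-helix proteins such as Neurod1 and Neurog3 recognise.
Sct, chr7:141279134-141279383, minus strand: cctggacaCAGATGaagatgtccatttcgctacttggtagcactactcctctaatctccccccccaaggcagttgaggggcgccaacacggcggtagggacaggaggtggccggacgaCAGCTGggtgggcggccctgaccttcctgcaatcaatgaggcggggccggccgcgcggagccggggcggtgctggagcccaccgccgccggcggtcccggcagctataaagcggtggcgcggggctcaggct
Cck, chr9:121495695-121495944, minus strand: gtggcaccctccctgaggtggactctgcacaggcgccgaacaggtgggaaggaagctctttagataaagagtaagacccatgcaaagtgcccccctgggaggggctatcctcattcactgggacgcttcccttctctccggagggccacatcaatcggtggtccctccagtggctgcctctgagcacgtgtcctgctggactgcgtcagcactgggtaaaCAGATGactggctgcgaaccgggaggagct
Ucn3, chr13:3945350-3945599, minus strand: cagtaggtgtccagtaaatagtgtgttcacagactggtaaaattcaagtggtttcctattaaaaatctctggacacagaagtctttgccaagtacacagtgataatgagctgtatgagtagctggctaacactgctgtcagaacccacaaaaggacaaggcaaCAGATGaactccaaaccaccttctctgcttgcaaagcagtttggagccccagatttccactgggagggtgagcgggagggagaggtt
Slc18a2, chr19:59260628-59260877, plus strand: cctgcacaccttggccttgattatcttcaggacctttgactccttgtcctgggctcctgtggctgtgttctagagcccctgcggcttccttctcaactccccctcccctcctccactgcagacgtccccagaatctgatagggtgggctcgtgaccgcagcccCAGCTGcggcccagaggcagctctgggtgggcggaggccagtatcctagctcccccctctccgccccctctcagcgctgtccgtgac
The Sct window holds 1 match to CAGATG, 242 bases before the start, and 1 to CAGCTG, 132 bases before it. The Cck and Ucn3 windows hold CAGATG at 30 and 87 bases before their starts, and the Slc18a2 window holds CAGCTG at 87 bases before its start. Of the 32851 RefSeq windows of the same length, 14.4% hold CAGATG, 13% hold CAGCTG and 25.5% hold either, so genes that went in opposite directions carried letters that are common before mouse genes. The 4 genes were picked after their values were seen, and a match describes the letters only.

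Whole-library measures also differed between the libraries. Deposited values summed to 731415 to 766491 per crypt EC library and 805073 to 901567 per villus EC library, and 13029 to 13071 genes in crypt EC libraries and 12488 to 12864 in villus EC libraries reached a value of 1 or more. Their part in the results below was not tested beyond the scaling given with the counts. The depth in reads is unknown. Tph1, the gene behind the reporter, was at 3678 to 6163 in crypt EC and 13599 to 17178 in villus EC. Its means in crypt and villus epi were 1.57 and 50.3. Cells were sorted on that reporter, so this contrast is no independent support for the EC label. Chga, which was not used in the sort, had means of 16042 and 14337 in crypt and villus EC. Its means in crypt and villus epi were 11.3 and 68.4. Y-linked transcripts were present in crypt EC replicate 1 and in villus EC replicates 1, 2 and 3 (Ddx3y at 21.9 to 25.1) and near 0 in the other 4 libraries (Ddx3y at 0 to 0.172), so that status is partly aligned with site. Of 4 sex-linked genes tested 1, Kdm5d, was called as higher in villus EC. Crypt EC replicate 1 also stood apart from its group, with a mean correlation across genes of 0.969 with the other crypt EC libraries where those reached 0.981 to 0.982. Its mean correlation with the villus EC libraries was lower too, 0.863 where the other crypt EC libraries reached 0.904 to 0.908. Replicate 1 is the only crypt EC library with Y-linked transcripts, so what sets it apart and Y-linked status cannot be told apart within the crypt group. With a term for Y-linked status in the fit, 2740 genes were called higher and 3666 lower, beside 2748 and 3759 without it. Mitochondrially encoded transcripts took 2.95% to 4.32% of the total in crypt EC libraries and 2.23% to 2.48% in villus EC libraries.

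About as many genes were called as different between the sites as were not. By limma on log2(value + 1), 6507 of 13190 genes were called at an adjusted p below 0.05 (49.3%), of which 2748 (20.8%) were higher in villus EC and 3759 (28.5%) lower. A change of at least 2-fold was called for 809 higher genes (6.13%) and 1215 lower genes (9.21%). The values of the 4 and 4 libraries did not overlap for 6179 genes (46.8%). Without crypt EC replicate 1 the called genes were 2762 higher and 3527 lower, with 752 and 1118 at 2-fold or more. When each library was scaled to the same total, the median difference of all genes moved by -0.18 on the log2 scale (from -0.05 to -0.23) and the called genes were 1798 higher and 5413 lower, so the share of called genes that were higher went from 42.2% to 24.9%. Unadjusted p-values below 0.05 were reached by 7332 genes (55.6%). With so wide a background, a list of genes is described below by how far its counts depart from 20.8% higher and 28.5% lower, and no list was tested as a set.

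**Figure D1:**
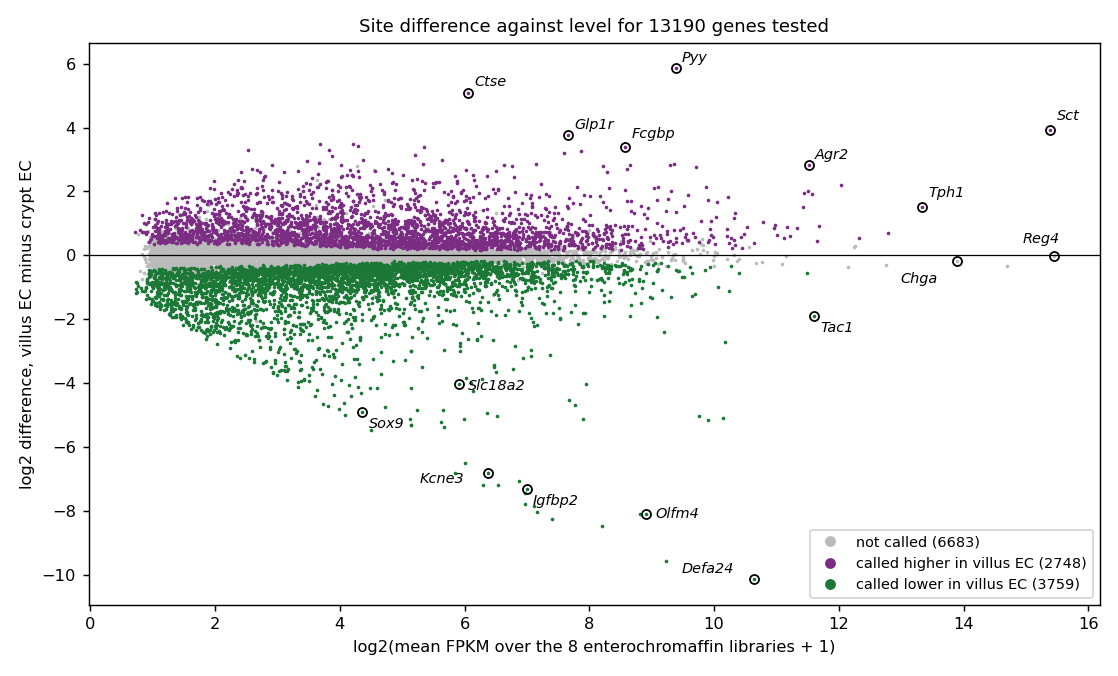
Difference between the sites (vertical axis, log2 villus EC minus crypt EC) against level (horizontal axis, log2 of the mean FPKM over the 8 EC libraries + 1) for the 13190 genes tested, with called genes in purple (2748 higher) and green (3759 lower). Among the labelled genes Pyy, Ctse and Sct lie highest and Defa24, Olfm4 and Igfbp2 lowest, and the abundant Reg4 and Chga lie near 0.

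The peptide hormones of EC cells differed sharply between the sites, with secretin, peptide YY and cholecystokinin transcripts higher in the villus and substance P and urocortin 3 transcripts higher in the crypt. Fewer cells of a type and less RNA per cell cannot be told apart in bulk libraries, here or in any result below. Sct encodes secretin, which drives bicarbonate and fluid secretion. Its values were 1280.4, 7219, 9171 and 7379 FPKM (fragments per kilobase of transcript, relative to the fragments of the library, as deposited) in crypt EC replicates 1 to 4 and 71244, 93160.3, 103341 and 50729 in villus EC replicates 1 to 4. Every villus library exceeded every crypt library, crypt EC replicate 1 was the lowest, and the log2 difference was 3.94 ± 0.57 (SE) (adjusted p = 0.000306), or 3.29 without crypt EC replicate 1. Of all deposited FPKM, Sct alone took 0.83% ± 0.449 (SD, n = 4) at the crypt site and 9.2% ± 2.56 at the villus site, where it was the most abundant transcript of replicates 1 to 3.

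Pyy encodes peptide YY, which is better known from L cells. It stood at 6.71, 33.8, 31.7 and 22.9 FPKM in crypt EC and at 700.0, 1286, 1790.0 and 1476 in villus EC, the largest rise among the 15 highest genes named here (log2 difference 5.86 ± 0.46 (SE), adjusted p = 6.63e-06). Cck, the cholecystokinin gene of I cells, was at 134, 60.3, 62.5 and 31.9 FPKM in crypt EC and 168, 927, 1660.1 and 169 in villus EC. Its villus libraries spread widely, with replicates 1 and 4 close to the highest crypt library, and the log2 difference of 2.83 ± 0.74 (SE) (adjusted p = 0.00978) was 2.21 without villus EC replicate 3. Cartpt, the CART prepropeptide gene, rose from 4.92 ± 2.57 to 30.3 ± 7.96 FPKM (SD, n = 4, adjusted p = 0.000218). Gip, the incretin gene of K cells, rose from 13.3 ± 11.1 to 59.9 ± 23.8 (adjusted p = 0.00882), although villus EC replicate 4 lay inside the crypt range.

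Tac1 encodes substance P and neurokinin A, and was at 6331, 4557, 4339.9 and 4335 FPKM in crypt EC and 1146, 1257, 1512 and 1323 in villus EC. The groups were far apart, and the log2 difference was -1.89 ± 0.15 (SE) (adjusted p = 5.87e-06). Ucn3, which encodes urocortin 3, a ligand of the corticotropin-releasing hormone receptor Crhr2, was at 504, 812, 835 and 784 FPKM in crypt EC and 314, 255, 289.6 and 286 in villus EC. It fell by 1.33 on the log2 scale (SE 0.15, adjusted p = 7.27e-05), again with no overlap. Ghrl, the ghrelin gene, was lower by a narrow margin (log2 difference -1.52, adjusted p = 0.0462) with overlapping groups, and lost its call without crypt EC replicate 1, 2 or 3 or villus EC replicate 1, 2 or 4 (log2 differences from -1.59 to -1.08, adjusted p up to 0.115). Nts, the neurotensin gene, ranged from 3.79 to 93.4 in crypt EC and 5.72 to 291 in villus EC and was not called. Its log2 difference of 1.31 was 4.88 within the libraries with Y-linked transcripts and -2.80 within those without. Each of these 2 values rests on a single library at 1 of the sites. Gcg and Sst, which define L and D cells, did not pass the filter and were listed at 0 in at least 1 library of each group. Gcg ranged over 0 to 35.2 FPKM in crypt EC and 0 to 28.6 in villus EC, and Sst over 0 to 5.33 and 0 to 58.8, so single libraries held some of either transcript. Of the 15 hormone genes tested, 7 were higher and 4 lower, with a median log2 difference of 1.31 (-0.05 over all genes tested), or 7, 3 and 0.55 without crypt EC replicate 1. The median was 2.02 within the libraries with Y-linked transcripts and 0.26 within those without. The first value sets 3 villus EC libraries against crypt EC replicate 1 alone. The second sets villus EC replicate 4 alone against the other crypt EC libraries.

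**Figure D2:**
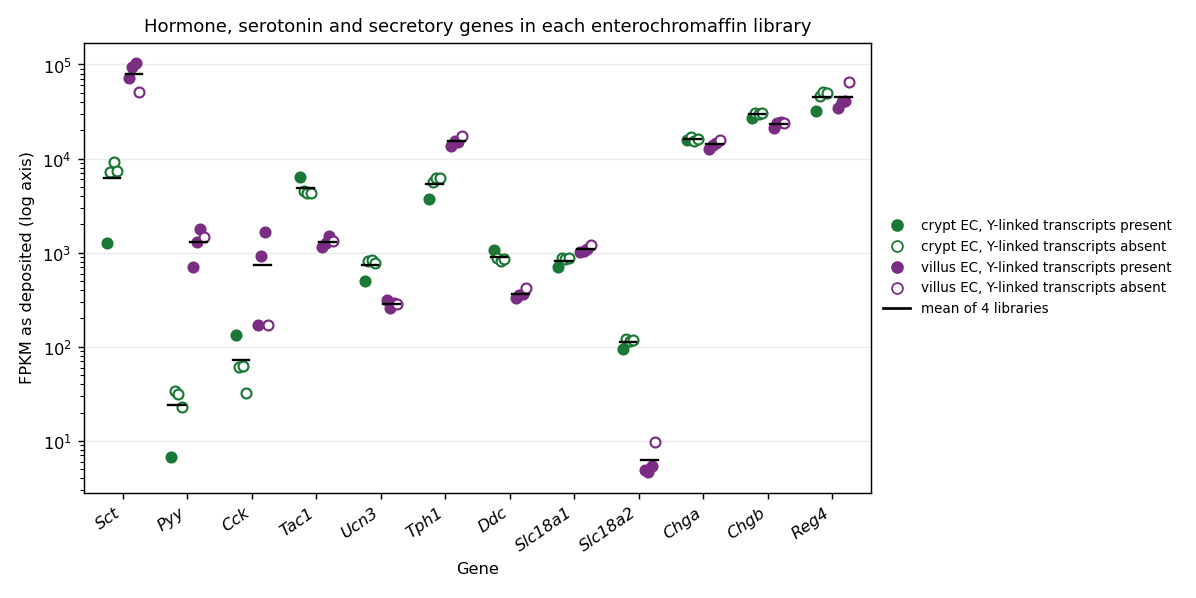
FPKM as deposited (vertical log axis) of 12 hormone, serotonin and secretory genes in each of the 8 EC libraries, green for crypt and purple for villus, filled where Y-linked transcripts were present, with black bars for the mean of 4. Sct, Pyy, Cck, Tph1 and Slc18a1 sit higher in every villus library than in any crypt library, Tac1, Ucn3, Ddc and Slc18a2 lower, and Chga and Reg4 overlap.

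Genes of the serotonin pathway went in both directions. Tph1, the rate-limiting enzyme of serotonin synthesis outside the brain and the gene behind the reporter, was at 3678, 5573, 6163 and 6152 FPKM in crypt EC and 13599, 15288, 15064 and 17178 in villus EC. It was higher in each villus library, with a log2 difference of 1.53 ± 0.19 (SE) (adjusted p = 0.00012). Since cells were sorted on a reporter of this gene, its level is not independent of the sort. Ddc, the decarboxylase of the next step, was at 1055, 877, 823 and 860.4 FPKM in crypt EC and 328, 352, 367 and 417 in villus EC (log2 difference -1.30 ± 0.10 (SE), adjusted p = 6.42e-06), so the 2 enzymes of the pathway differed in opposite directions.

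The 2 vesicular monoamine transporters also parted. Slc18a1 (VMAT1), the usual transporter of EC cells, was at 697, 873, 856 and 874 FPKM in crypt EC and 1011, 1037, 1100.2 and 1221 in villus EC (log2 difference 0.41 ± 0.10 (SE), adjusted p = 0.00706), and this small rise was not called in a fit of all 16 libraries (adjusted p = 0.067) or with libraries scaled to the same total (adjusted p = 0.071). Slc18a2 (VMAT2), the transporter of neurons and histamine-storing cells, was at 94.7, 121, 114 and 117 FPKM in crypt EC and 4.95, 4.65, 5.43 and 9.8 in villus EC. That is a fall of 16.2-fold on the log2(value + 1) scale, with no overlap (adjusted p = 2.82e-07). The serotonin reuptake transporter Slc6a4 was low and fell further (15.5 ± 2.2 to 4.66 ± 2.03 FPKM, adjusted p = 0.000426), and Aldh2, which oxidises the aldehyde made from serotonin, fell from 43.9 ± 5.91 to 14.6 ± 3.11 (adjusted p = 2.45e-05, but 0.0807 in the fit of all 16 libraries). Of the 15 serotonin genes tested, 4 were higher and 8 lower, with a median of -0.49. With libraries scaled to the same total the counts were 1 and 9.

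The most abundant granule proteins were not called, while several less abundant secretory genes rose. Chga, chromogranin A, was at 16042 ± 591 FPKM in crypt EC and 14337 ± 1323 in villus EC and was not called (log2 difference -0.17, adjusted p = 0.402). Chgb, chromogranin B, was at 29622 ± 1555 and 23336 ± 1617 and was not called either (adjusted p = 0.146), although its groups did not overlap. Both became called as lower with libraries scaled to the same total (log2 differences -0.37 and -0.55), and Chgb also without crypt EC replicate 1 (-0.38, adjusted p = 0.0316) and in a fit without the trend of the variance (adjusted p = 0.00991). Reg4, a secreted lectin marking EC cells, was at 44761 ± 8681 and 44849 ± 13339.6 FPKM, a difference of -0.02 ± 0.29 (SE) that changed sign under several alternatives and was not called (adjusted p = 0.967). Scg2, secretogranin II, was at 4.38, 9.01, 9.9 and 8.78 FPKM in crypt EC and 46.8, 82.9, 122 and 30.1 in villus EC (log2 difference 2.85 ± 0.40 (SE), adjusted p = 0.000236). Vgf and Scg3, also granin family genes, rose by 1.41 and 1.25, and Ptprn2, a granule membrane phosphatase, fell by 1.23 (adjusted p from 3.26e-06 to 0.000982). Among 16 granin and prohormone-processing genes, 8 were higher and 2 lower, with a median of 0.54, or 8 and 6 with libraries scaled to the same total.

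The fusion machinery changed in composition. Snap25, a membrane SNARE of regulated secretion, was at 173, 283, 297 and 305 FPKM in crypt EC and 727, 714, 735 and 698 in villus EC (log2 difference 1.47 ± 0.16 (SE), adjusted p = 5.24e-05). Syt7, a calcium sensor of exocytosis, rose from 4.87 ± 2.43 to 29.8 ± 3.4 FPKM, and Rab27b, which tethers granules, from 8.75 ± 0.35 to 35.6 ± 3.56. In the other direction Rab3c, another granule Rab, fell from 371 ± 16.3 to 107 ± 7.03 FPKM and the SNARE clamp Cplx1 from 24.7 ± 2.1 to 9.23 ± 1.74 (adjusted p of these 4 genes at most 0.000186). Of 31 fusion and exocytosis genes tested, 13 were higher and 8 lower (median 0.18), and with libraries scaled to the same total 12 were higher and 11 lower with a median of -0.02.

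Transcription factors of the endocrine lineage went in both directions. Neurog3, which commits progenitors to the endocrine fate, was at 11.8, 6.68, 6.04 and 8.48 FPKM in crypt EC and at 0, 0, 0.0592 and 0 in villus EC, where it is listed at 0 in 3 of 4 libraries (adjusted p = 1.31e-06). Mnx1, a homeobox gene of EC precursors, fell from 5.46 ± 2.5 to 0.117 ± 0.0322 FPKM (adjusted p = 1.81e-05). Neurod1, which acts downstream of Neurog3, was at 199, 238, 233 and 244 FPKM in crypt EC and 548, 712, 762 and 694 in villus EC (log2 difference 1.56 ± 0.11 (SE), adjusted p = 3.49e-06). Sox4 and the pioneer factor Foxa1 rose to a like extent, by 1.56 and 1.52. Lmx1a, a LIM homeobox regulator of Tph1, differed little (367 ± 20.5 to 437 ± 19.8 FPKM, log2 difference 0.25, adjusted p = 0.0113) and was not called in the fit of all 16 libraries (adjusted p = 0.26) or with libraries scaled to the same total (0.60). Fev, an ETS factor of serotonergic cells, was at 188, 34.2, 21.8 and 22 FPKM in crypt EC and 73, 46, 28 and 14 in villus EC, with crypt EC replicate 1 far above the rest, and was not called (adjusted p = 0.746). With a term for Y-linked status Fev was called as lower (log2 difference -1.42, adjusted p = 0.00971), and without crypt EC replicate 1 or villus EC replicate 4 its sign turned (0.41 and 0.11). Of 30 endocrine factors tested, 12 were higher and 9 lower (median 0.11), or 9 and 10 with libraries scaled to the same total.

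Factors of intestinal zonation tended downward, with 18 of 39 lower and 8 higher (median -0.22). In the fit of all 16 libraries the list was more evenly split, 8 lower and 6 higher. Over all genes that fit called 2221 lower and 1461 higher. Sox9, a factor of the crypt base, was at 43, 38.2, 36.9 and 37.2 FPKM in crypt EC and 0.516, 0.34, 0.337 and 0.175 in villus EC, with a log2 difference of -4.89 ± 0.12 (SE) and groups far apart (adjusted p = 3.1e-09). Ascl2, the stem cell bHLH factor, fell from 15.6 ± 1.43 to 0.0978 ± 0.0955 FPKM, and the vitamin D receptor gene Vdr from 157 ± 10 to 42.1 ± 1.66. Klf4, a factor of differentiated villus cells, rose from 5.39 ± 2.78 to 24.7 ± 5.32, and Atoh1, the secretory lineage bHLH factor, from 5.08 ± 0.802 to 22.2 ± 7.28 (adjusted p of these 4 at most 0.00105). The forkhead gene Foxq1 (2.17 ± 0.687 to 34.9 ± 13.5 FPKM) and the homeobox gene Prrx2 (1.66 ± 1.4 to 24.8 ± 11.4) were among the 15 named genes with the largest rise.

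The title of the series names somatostatin as a regulator of EC cells, and its receptors are therefore given library by library. Sstr1 was the most abundant at 127, 188, 181 and 192 FPKM in crypt EC and 297, 249, 259.7 and 291 in villus EC (log2 difference 0.68 ± 0.13 (SE), adjusted p = 0.00164, but 0.127 in the fit of all 16 libraries). Sstr5 was at 37.1, 50, 45.5 and 48.1 in crypt EC and 94, 106, 99.8 and 85.9 in villus EC (log2 difference 1.08 ± 0.10 (SE), adjusted p = 2.39e-05). Sstr2 was at 7.09, 7.05, 8.49 and 8.5 in crypt EC and 25.1, 21.8, 30.3 and 15 in villus EC (log2 difference 1.42 ± 0.19 (SE), adjusted p = 0.000173). For these 3 inhibitory receptors every villus library exceeded every crypt library. Sstr3 was rare and went the other way, from 4.39 ± 0.711 to 1.84 ± 0.704 FPKM (log2 difference -0.95, adjusted p = 0.00274). The summed receptor level was 176 to 252 FPKM in crypt EC and 379 to 417 in villus EC, and the order Sstr1, Sstr5, Sstr2, Sstr3 held at both sites without overlap between neighbours.

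Glp1r, the receptor of glucagon-like peptide 1, showed the largest rise of the 26 receptors outside the somatostatin family that were tested. It was at 3.59, 42.9, 50 and 50.9 FPKM in crypt EC and 391, 338, 362 and 376 in villus EC. The villus libraries were tightly grouped, crypt EC replicate 1 was the lowest by a wide margin, and the log2 difference was 3.76 ± 0.67 (SE) (adjusted p = 0.00114), or 2.91 without that library. Galr1, a galanin receptor, rose from 18 ± 9.46 to 70.2 ± 9.45 FPKM (adjusted p = 0.00326). The muscarinic receptor gene Chrm3 fell from 19.2 ± 8.78 to 0.303 ± 0.169, the VIP receptor gene Vipr1 from 11.8 ± 2.2 to 1.16 ± 1.22, and Gpr142, a tryptophan-sensing receptor, from 10.9 ± 3.74 to 1.09 ± 0.567 (adjusted p at most 8.79e-05). Of these 26 receptors, 12 were higher and 10 lower (median 0.44). Among 39 G protein, RGS and cyclic AMP genes, 14 were higher and 5 lower (median 0.11), which became 8 and 11 with libraries scaled to the same total.

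Ion channels went both ways too. Of 46 tested, 16 were higher and 12 lower (median 0.03), or 15 and 16 with libraries scaled to the same total. Kcnn4, a calcium-activated potassium channel, was at 36.8, 27.9, 24.2 and 21.9 FPKM in crypt EC and 0.183, 0.715, 0.14 and 0.445 in villus EC, and the chloride channel gene Cftr fell from 13.8 ± 1.29 to 0.115 ± 0.0606. Kcne3, a potassium channel subunit of crypt cells, fell from 164 ± 14.9 to 0.5 ± 0.409 FPKM, a log2 difference of -6.82, and the 3 genes were far lower in every villus library (adjusted p at most 1.65e-07). These channels serve secretion in the crypt epithelium at large, and their crypt epi means were 84.5, 46.9 and 382 FPKM.

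Among the rising channels, Trpm2, a calcium-permeable channel opened by oxidative signals, was at 34.5, 95.9, 102 and 124 FPKM in crypt EC and 356, 374, 343 and 357 in villus EC (adjusted p = 0.000413). The background potassium channel gene Kcnk2 rose from 0.424 ± 0.243 to 5.11 ± 0.574 FPKM (adjusted p = 4.4e-06). The calcium-activated chloride channel gene Ano1 rose from 9.58 ± 5.96 to 34.3 ± 7.96 (log2 difference 2.10, or 1.36 without crypt EC replicate 1). Trpa1, the irritant receptor of EC cells, was lower in the villus by a small amount, from 233 ± 15.9 to 153 ± 26.9 FPKM (log2 difference -0.62 ± 0.11 (SE), adjusted p = 0.00128). Scn3a, the main sodium channel of these cells, was at 291 ± 33.7 and 265 ± 15 and was not called (adjusted p = 0.248), although with libraries scaled to the same total it was called as lower (-0.34).

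Direct targets of BMP signalling were higher in villus EC cells. Id1, Id2 and Id3 encode inhibitors of helix-loop-helix factors and are immediate BMP targets, and Smad6 encodes an inhibitory Smad induced by the same pathway. Id1 was at 42.5, 178, 163 and 156 FPKM in crypt EC and 309, 450.2, 526 and 465 in villus EC (log2 difference 1.86 ± 0.40 (SE), adjusted p = 0.0037). Id3 was at 130.5, 449, 406 and 403 in crypt EC and 930.2, 1187, 1289 and 1341 in villus EC (log2 difference 1.91 ± 0.35 (SE), adjusted p = 0.00128), and Id2 rose from 292 ± 117 to 651 ± 53.2 (adjusted p = 0.00748). In all 3 Id genes crypt EC replicate 1 lay well below the other crypt libraries. Smad6 was at 1, 1.45, 1.4 and 1.27 FPKM in crypt EC and 24.8, 13.2, 9.12 and 8.73 in villus EC (log2 difference 2.60 ± 0.28 (SE), adjusted p = 4.8e-05), and here crypt EC replicate 1 was lowest by a small margin only. The ligand gene Bmp7 went down instead, from 8.66 ± 2.3 to 1.1 ± 0.195 FPKM. Of 25 BMP pathway genes tested, 13 were higher and 3 lower (median 0.47), or 10 and 5 with libraries scaled to the same total.

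Wnt, stem cell and proliferation genes were mostly lower in the villus. Olfm4, a secreted glycoprotein of crypt base stem cells, was at 1337, 861, 860.1 and 787 FPKM in crypt EC and 2.62, 2.92, 1.79 and 2.39 in villus EC (log2 difference -8.11 ± 0.17 (SE), adjusted p = 1.09e-09). Smoc2, another stem cell gene, fell from 126 ± 14.6 to 0.435 ± 0.408, Lgr5, the receptor that marks cycling stem cells, from 14.5 ± 2.03 to 0.797 ± 0.166, and Cdca7, a replication-linked gene, from 49.7 ± 6.3 to 0.912 ± 0.358 (adjusted p at most 1.82e-07). In crypt epi these 4 genes were at means of 1385, 135, 27.8 and 92.7 FPKM, so that crypt EC libraries held Olfm4 and Smoc2 at levels of the same order as the other crypt cells. Sfrp5, a secreted Wnt inhibitor, fell from 37.7 ± 6.84 FPKM in crypt EC to 0.953 ± 0.292 in villus EC, beside 8.23 ± 2.14 in crypt epi. Of 22 stem cell genes, 16 were lower and 1 higher (median -1.13), and of 33 Wnt pathway genes 19 were lower and 6 higher (median -0.62). The 22 Notch pathway genes were split, 10 higher and 6 lower (median 0.08), or 7 and 7 with libraries scaled to the same total.

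Cell cycle genes fell together, with 43 of 53 lower and 5 higher and a median log2 difference of -2.0. Ccnb1, the mitotic cyclin B1, was at 30.8, 20.3, 23.5 and 15.7 FPKM in crypt EC and 0.201, 0.247, 0.25 and 0.266 in villus EC (adjusted p = 1.7e-07). The mitotic activator Cdc20 fell from 26.5 ± 7.38 to 0.715 ± 0.665, the replication helicase gene Mcm5 from 19.1 ± 4.98 to 0.317 ± 0.15, and the chromosomal passenger gene Birc5 from 29.5 ± 5.94 to 1.04 ± 0.239 (adjusted p at most 2.21e-06). Mki67, the proliferation marker Ki-67, was at 3.5, 3.02, 2.42 and 1.28 FPKM in crypt EC and 0.0395, 0.1, 0.354 and 0.103 in villus EC. The crypt epi libraries were at 11.2 ± 0.922 FPKM (SD, n = 4). Markers of another crypt cell, the Paneth list described below, stood in crypt EC at 3.87% of their crypt epi sum, and their part in the stem cell and cell cycle values was not tested.

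**Figure D3:**
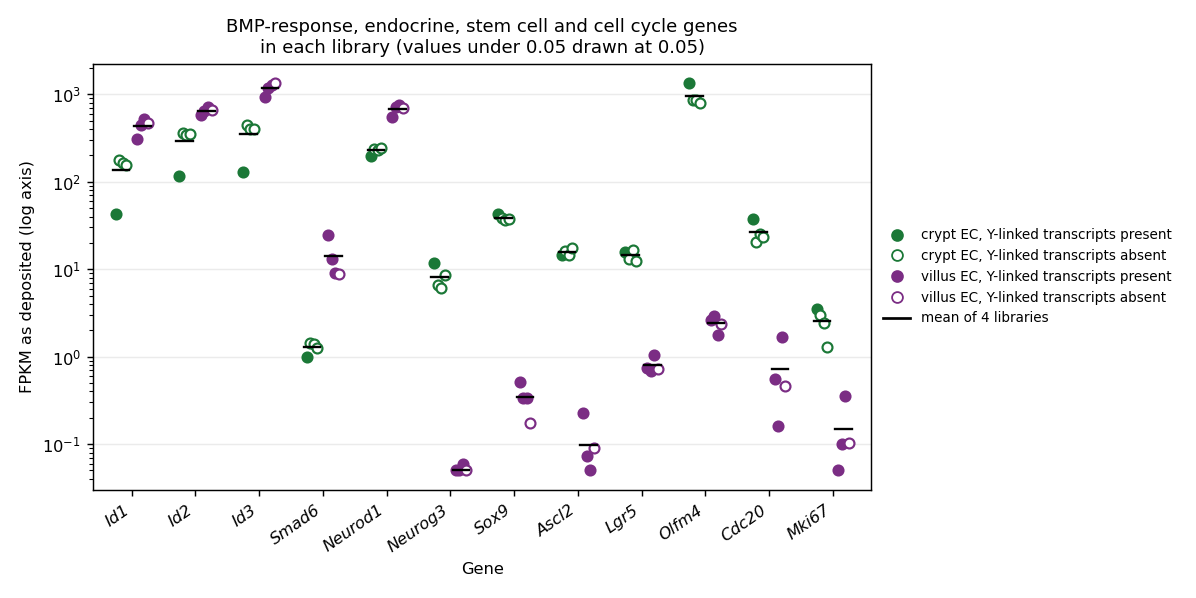
FPKM as deposited (vertical log axis, values under 0.05 drawn at 0.05) of 12 BMP-response, endocrine, stem cell and cell cycle genes in each EC library, with colours, fills and bars as in the plot of hormone genes. Id1, Id2, Id3, Smad6 and Neurod1 are higher in all 4 villus libraries, and Neurog3, Sox9, Ascl2, Lgr5, Olfm4 and Mki67 are higher in all 4 crypt libraries.

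Villus EC cells shared part of the zonation known from absorptive cells. Genes of the villus tip, which make up the purine-degrading and cell adhesion programme of old enterocytes, were higher in 11 of 17 cases and lower in 1 (median 1.11). Enpp3, an ectonucleotidase, was at 4.59, 12.2, 14.2 and 11.7 FPKM in crypt EC and 68.6, 98.3, 102 and 79.7 in villus EC (log2 difference 2.99 ± 0.28 (SE), adjusted p = 2.18e-05). Nt5e, the ecto-5′-nucleotidase CD73, was at 11.3, 120.2, 126 and 132 in crypt EC and 476, 494, 519 and 485 in villus EC, beside 23.5 ± 20 FPKM in villus epi, with a log2 difference of 2.80 (1.96 without crypt EC replicate 1). Apobec1, the Apob mRNA editor, rose from 5.55 ± 0.712 to 39.7 ± 5.19, and Ada, adenosine deaminase, from 3.13 ± 0.307 to 23.1 ± 14 (adjusted p at most 0.000566). Brush border genes were higher in 17 of 25 cases and lower in 0 (median 0.68, or 14 and 2 with libraries scaled to the same total). Among them the scaffold gene Pdzk1 rose from 5 ± 2.77 to 29.7 ± 4.8, the actin bundler Espn from 24.4 ± 11.4 to 115 ± 4.39 and the membrane mucin Muc3 from 5.62 ± 2.53 to 27.9 ± 8.63.

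Absorptive genes followed less evenly. Of 29 lipid absorption genes, 12 were higher and 4 lower (median 0.34). Apoa4 rose from 13.2 ± 5.21 to 76.5 ± 50.2 FPKM and Apoc2 from 37.1 ± 17.3 to 145 ± 39.5, both apolipoproteins of chylomicrons, against 10841 ± 5036 and 11569 ± 4074 in villus epi. Of 30 sugar and peptide genes, 9 were higher and 11 lower (median 0.35). Sis, sucrase-isomaltase, was at 60.3, 202, 189 and 192 FPKM in crypt EC and 529, 562, 659.7 and 649 in villus EC (log2 difference 2.04 ± 0.34 (SE), adjusted p = 0.000719), about the 521 ± 268 FPKM of villus epi. The peptide transporter gene Slc15a1 rose from 6.56 ± 4.09 to 25.6 ± 1.88 (log2 difference 2.15, 1.47 without crypt EC replicate 1), and the fructose transporter gene Slc2a5 fell from 23 ± 3.58 to 3.9 ± 3.04. The list of 20 enterocyte markers summed to 1538 to 2837 FPKM in crypt EC and 3506 to 5329 in villus EC, or 17.8% and 2.71% of the mean sums in crypt and villus epi. Of the 19 tested 7 were higher and 5 lower, and none of the 20 was at 0 in all libraries of an EC group. The part of enterocyte RNA in these differences was not tested.

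Paneth cell transcripts had the lowest median of the lists, -6.81. Defa24, an alpha-defensin of Paneth granules, was at 2333, 3823, 3768 and 2788 FPKM in crypt EC and 1.89, 1.84, 1.29 and 2.05 in villus EC (log2 difference -10.14 ± 0.16 (SE), adjusted p = 2.07e-10). Alpha-defensin genes are near-identical copies, so reads may have been shared among them and values of single members are uncertain. Itln1, intelectin 1, fell from 899 ± 204 to 2.38 ± 1.19 FPKM, and Lyz1, Paneth lysozyme (chosen after its values were seen), from 1851 ± 398 to 53.5 ± 23.2. Of 19 tested Paneth markers 14 were lower and 3 higher, and the whole list of 25 summed to 7968 to 11825 FPKM in crypt EC, 979.7 to 1446 in villus EC and 236264 to 287577 in crypt epi. The crypt EC sum was 3.87% of that of crypt epi, and 1 marker was at 0 in all crypt EC libraries and 5 in all villus EC libraries. Defa24, Itln1 and Lyz1 were at 79498, 25077 and 49583 FPKM in crypt epi, and the part of Paneth cell RNA in the crypt EC values was not tested. The lower villus antimicrobial genes, which share Itln1, Pla2g2a and Ang4 with the Paneth list, were lower in 6 of 12 cases and higher in 2.

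Goblet cell markers were divided. Agr2, a disulfide isomerase needed for mucin folding, was at 248, 1025, 1056 and 925 FPKM in crypt EC and 4491, 4928, 5718 and 5021 in villus EC (log2 difference 2.83 ± 0.40 (SE), adjusted p = 0.000288). In epi it went the other way, from 6480 ± 236 FPKM in the crypt to 565 ± 123 in the villus. Fcgbp, a mucin-binding protein, was at 65.3, 79.3, 49.7 and 61.4 in crypt EC and 579.7, 936, 862 and 419 in villus EC (log2 difference 3.38 ± 0.24 (SE), adjusted p = 3.73e-06). Spink4, a peptide of goblet cells, went the other way, from 464 ± 169 to 12.6 ± 5.57 FPKM, where crypt and villus epi were at 23421 and 2562. Muc2, which defines goblet cells, did not pass the filter and ranged over 0.713 to 1.97 FPKM in crypt EC and 0 to 0.648 in villus EC, against 141 to 209 in crypt epi and 5.11 to 74.4 in villus epi. Of 22 goblet markers tested 10 were higher and 6 lower, and the list of 24 summed to 2775 to 4049.7 FPKM in crypt EC and 10837 to 15015 in villus EC, or 4.28% and 38.3% of the epi sums. Most of the villus EC mean sum of 13130 came from Tff3 (6905) and Agr2 (5039). In villus EC and villus epi, Zg16 was at means of 130 and 12269, Clca1 at 18.9 and 1656, and Spdef at 10.8 and 9.21. The part of goblet cell RNA in these values was not tested.

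Among markers of cells outside the epithelium, C1qa was the most abundant member of the myeloid and B cell list in crypt EC and Vim that of the stromal list. C1qa, a complement gene usual in macrophages, stood at 108, 127, 131 and 134 FPKM in crypt EC and 18.7, 18, 20.1 and 20.3 in villus EC (log2 difference -2.63 ± 0.08 (SE), adjusted p = 1.8e-08). Its partners C1qb and C1qc were at most 0.693 FPKM in any EC library, the macrophage genes Adgre1 and Csf1r at most 0.353, and C1qa itself was at 0.165 in crypt epi. Cd14, another gene of that list, was at 4.98 to 20.2 FPKM in crypt EC and 2.14 to 2.83 in villus EC. Vim, the intermediate filament of mesenchyme, fell from 160.3 ± 27.8 to 14.4 ± 4.59 FPKM (adjusted p = 2.66e-06) and was at 2.46 and 2.76 in crypt and villus epi, while Col1a1, Col1a2, Col3a1 and Pdgfra stayed between 0.0426 and 1.55 in the EC libraries. Pecam1, an endothelial marker, was at 16.8 to 33 FPKM in crypt EC and 13.3 to 21.6 in villus EC and was not called, beside 0.751 to 1.17 in crypt epi. The part of RNA from these cell types in the EC values was not tested. The whole myeloid and B cell list of 19 summed to 159.9 to 165 FPKM in crypt EC and 44.1 to 51.7 in villus EC, with 0 of its members at 0 throughout a group. Stromal and endothelial markers summed to 175 to 251 and 44.8 to 58.7, and T cell markers to 4.32 to 6.98 and 4.97 to 9.65. The 2 lower members of the 9 tested myeloid and B cell markers were C1qa and Cd14, and the 1 higher was Jchain. Of 9 tuft cell markers tested 1 was higher and 2 lower, and of 8 neuron and glia markers 3 were higher and 0 lower, namely Prph, Snap25 and Ret. Of the 4 stromal markers tested 1 (Vim) was lower, and 0 of 2 T cell and 0 of 4 erythroid markers were called.

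Several of the strongest differences concern genes outside the lists given so far. Ctse, the aspartic protease cathepsin E, was at 0.379, 4.53, 3.36 and 4 FPKM in crypt EC and 113, 155, 171 and 73.2 in villus EC (log2 difference 5.10 ± 0.43 (SE), adjusted p = 1.04e-05), and at 1.59 in villus epi. Shisa9, a transmembrane partner of AMPA receptors, rose from 2.13 ± 0.905 to 33 ± 3.89 FPKM, Sncg, gamma-synuclein, from 1.23 ± 1.01 to 22.3 ± 5.09, and Adh7, a retinol-oxidising alcohol dehydrogenase, from 2.11 ± 0.761 to 25.3 ± 3.4 (adjusted p at most 1.77e-05). These 4 were near 0 in villus epi, with means of 1.59, 0.539, 0.364 and 0.66 FPKM. Gsdma, a gasdermin, rose by 3.20 and the small heat shock protein gene Hspb1 by 3.28 (2.38 and 2.35 without crypt EC replicate 1).

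Among the genes with the largest fall, Igfbp2, an insulin-like growth factor binding protein, was at 185, 284, 286 and 254 FPKM in crypt EC and 0.523, 0.443, 0.687 and 0.651 in villus EC (log2 difference -7.31 ± 0.14 (SE), adjusted p = 7.58e-10), and at 0.0664 FPKM in crypt epi. Dmbt1, a scavenger receptor protein of crypts, fell from 283 ± 32.2 to 0.0853 ± 0.022 FPKM and Cps1, the carbamoyl phosphate synthetase of the urea cycle, from 232 ± 46.7 to 0.738 ± 0.304, both being abundant in crypt epi as well (1674 and 723). On the mm10 build, by GENCODE vM21, Pyy (ENSMUSG00000017311, chromosome 11, 102106676 to 102107832), Sct (ENSMUSG00000038580, chromosome 7, 141278330 to 141279133), Ctse (ENSMUSG00000004552, chromosome 1, 131638306 to 131675505) and Glp1r (ENSMUSG00000024027, chromosome 17, 30901817 to 30940791) were higher. Igfbp2 (ENSMUSG00000039323, chromosome 1, 72824503 to 72852474), Olfm4 (ENSMUSG00000022026, chromosome 14, 79984081 to 80023139) and Slc18a2 (ENSMUSG00000025094, chromosome 19, 59260896 to 59296012) were lower, as was Tac1 (ENSMUSG00000061762, chromosome 6, 7554879 to 7565834).

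Liver-type plasma proteins, a known feature of EC cells, were divided between the sites. Ambp, the precursor of alpha-1-microglobulin, was at 169, 435, 420.2 and 415 FPKM in crypt EC and 1279.7, 1495, 1653 and 1584 in villus EC (adjusted p = 0.000133), and Gpx3, plasma glutathione peroxidase, rose from 1382 ± 589 to 4696 ± 315 (adjusted p = 0.00135). Afp, alpha-fetoprotein, was at 1397 ± 518 and 2626 ± 1029 FPKM, a call at the margin (adjusted p = 0.0465). It was lost without crypt EC replicate 1, 2 or 3 or villus EC replicate 2, 3 or 4 (log2 differences from 0.59 to 1.07, adjusted p up to 0.116). Of 17 liver-type genes tested, 7 were higher and 6 lower (median 0.34), with 6 and 5 at 2-fold or more. Ambp, Gpx3 and Afp are all on the higher side, and the lower members are not named here.

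Ribosomal protein genes were lower almost without exception, 52 of 58 lower and 1 higher, by a median of -0.69. Rps19 fell from 668 ± 114 to 235 ± 13.4 FPKM and Rplp1 from 443 ± 45.8 to 159 ± 10.3 (adjusted p at most 5.56e-06), both parts of the cytosolic ribosome. Nuclear oxidative phosphorylation genes were lower in 31 of 51 cases and higher in 1, by a smaller median of -0.34 (48 and 0 with libraries scaled to the same total). Of 13 mitochondrially encoded transcripts 3 were lower and 1 higher (7 and 0 with that scaling). Immediate early and stress genes were higher in 20 of 37 cases and lower in 3 (median 0.66). Ddit3, the stress factor CHOP, was at 37.2, 105, 90.6 and 109.6 FPKM in crypt EC and 147, 293, 312 and 165 in villus EC (adjusted p = 0.00752).

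Of the 37 endoplasmic reticulum and unfolded protein genes 6 were higher, 8 lower and 23 not called (6 and 19 with libraries scaled to the same total). Atf6, a sensor of that pathway, was among the lower genes, at 210.2, 163, 145 and 153 FPKM in crypt EC and 11.5, 13.4, 13.5 and 10.7 in villus EC (log2 difference -3.66 ± 0.12 (SE), adjusted p = 2.49e-08). Its crypt and villus epi means were 10.2 and 4.52 FPKM. Cholesterol synthesis genes were higher in 14 of 27 cases and lower in 1 (median 0.41, or 11 and 3 with libraries scaled to the same total). Among them Hmgcs1, HMG-CoA synthase, rose from 104 ± 23.5 to 239 ± 68.4 FPKM.

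Antigen presentation genes were lower in 9 of 17 cases and higher in 3 (median -0.46). Cd74, the class II invariant chain, was at 629, 115, 111 and 101 FPKM in crypt EC and 10.1, 56.7, 38.5 and 8.05 in villus EC, with crypt EC replicate 1 far above the other crypt libraries. The log2 difference was -2.96 with it and -2.33 without it, and for the class II chain gene H2-Aa -2.38 and -1.68, the latter gene losing its call without villus EC replicate 1 or 4. Ifitm3, an interferon-induced restriction factor also known from stem cells, fell from 122 ± 47.2 to 2.43 ± 0.516 FPKM (adjusted p = 1.7e-07), while the interferon list as a whole had 5 of 20 lower and 2 higher, or 9 and 0 with libraries scaled to the same total. Of 6 Reg family lectin genes 1, Reg3b, was lower and 0 higher.

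Detoxifying and antioxidant genes included some of the cleanest differences. Ugt1a1, the bilirubin glucuronosyltransferase, was at 452, 472, 483 and 454 FPKM in crypt EC and 23.7, 34.2, 26.2 and 25.9 in villus EC (log2 difference -4.04 ± 0.10 (SE), adjusted p = 3.61e-09). The UGT1A genes share their last exons, so reads may have been divided among them. Mgst1, a microsomal glutathione transferase, fell from 95 ± 24.6 to 1.63 ± 0.854 FPKM, the catalase gene Cat from 200.5 ± 17.1 to 16.3 ± 3.74 and the metallothionein gene Mt1 from 233 ± 43 to 50.8 ± 6.72 (adjusted p at most 1.88e-06). In villus epi these 4 genes stood at 569, 103, 476 and 400.4 FPKM. Of 38 xenobiotic genes 12 were higher and 11 lower (median -0.13, or 11 and 19 with libraries scaled to the same total), and of 29 antioxidant and iron genes 11 were higher and 8 lower (median 0.04), the latter turning to 4 and 12 with libraries scaled to the same total.

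Surface and growth factor genes went in both directions. Ret, the receptor tyrosine kinase of the GDNF family, was at 15.2, 15.3, 13.6 and 13.5 FPKM in crypt EC and 73, 85, 80.2 and 58.4 in villus EC (log2 difference 2.28 ± 0.12 (SE), adjusted p = 4.36e-07). Hbegf, an EGF receptor ligand, rose from 18.3 ± 8.67 to 95.2 ± 15 FPKM. The adhesion genes Cadm1 (0.997 ± 0.305 to 7.21 ± 0.594) and Cntnap2 (11.4 ± 4.98 to 45.9 ± 3.75) also rose, and Nrp2, a semaphorin co-receptor, fell from 18 ± 1.57 to 0.588 ± 0.278 (adjusted p of these 4 at most 0.000486). Growth factor and receptor kinase genes were higher in 12 of 32 cases and lower in 8 (median 0.07, but -0.12 with libraries scaled to the same total), and axon guidance and adhesion genes were higher in 13 of 43 and lower in 14 (median 0.00), or 10 and 17 with libraries scaled to the same total.

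**Figure D4:**
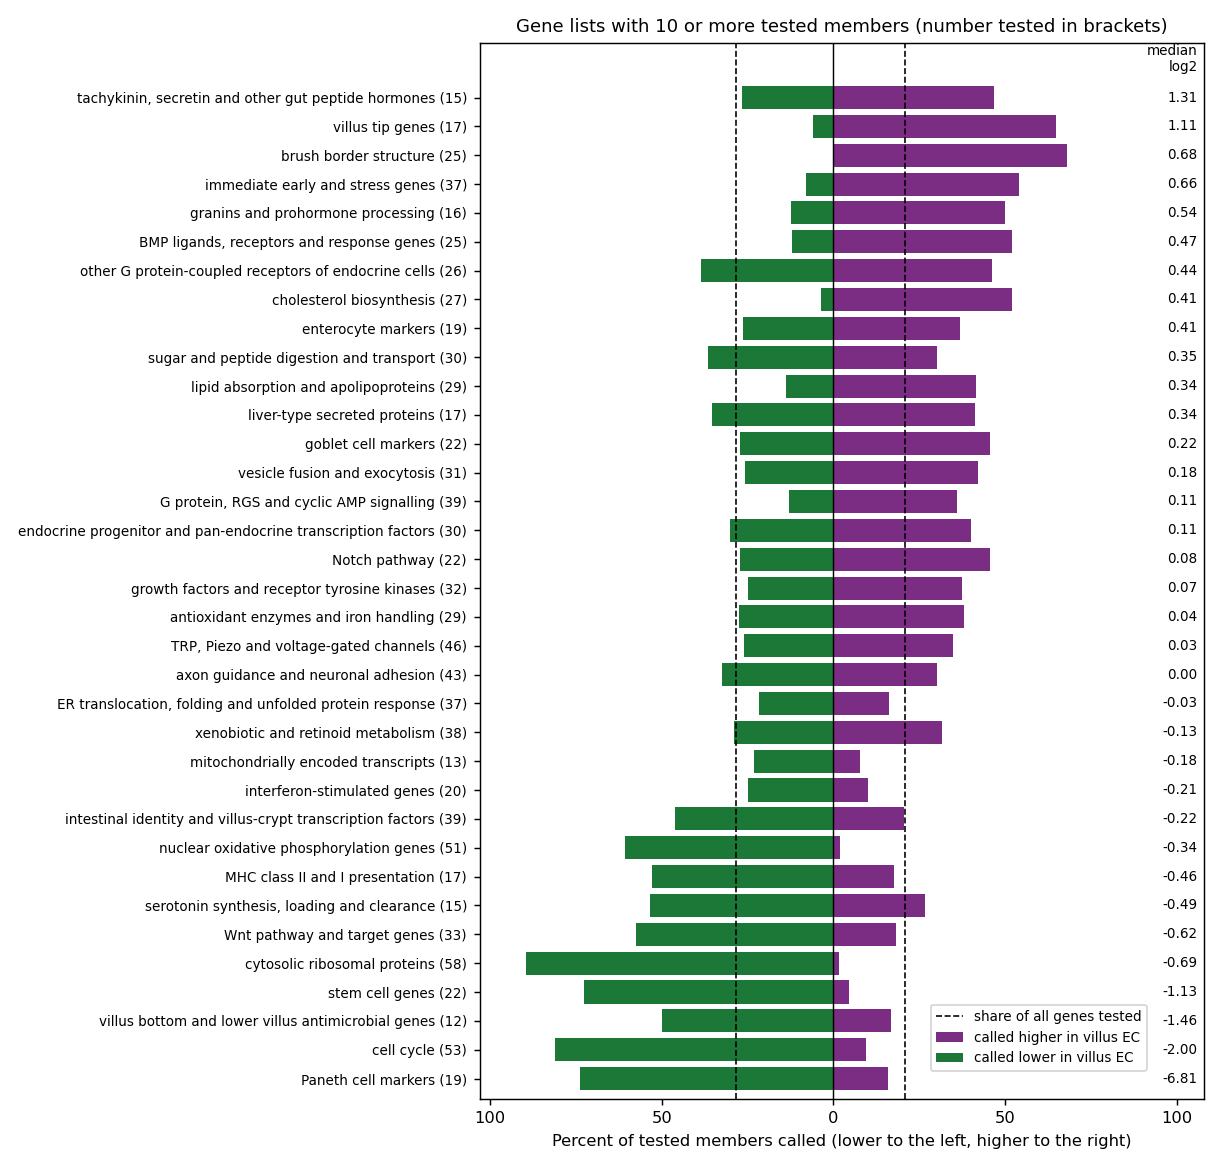
Share of tested members called higher (purple, to the right) or lower (green, to the left) in villus EC for each gene list with 10 or more tested members, in percent, with the number tested in brackets and the median log2 difference at the right. Dashed lines mark the shares over all genes tested, 20.8% higher and 28.5% lower, and the lists run from peptide hormones (median 1.31) to Paneth cell markers (median -6.81).

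Whether EC cells differed between the sites by more or less than the other epithelial cells was asked for 12 genes, in 1 fit of all 16 libraries in which 6050 of 14089 genes (42.9%) passed the interaction test. The epi cells were sorted as reporter-negative, and hold other endocrine cells, with Gcg at 181 to 371 FPKM and Sst at 124 to 267 in crypt epi. Both were lower in villus epi, at 0.303 to 3.49 and 0 to 85.1, while Gip was at 367 to 1925 in crypt epi and 211 to 1321 in villus epi. The part of these endocrine cells in the interactions was not tested. Pyy was at 157 ± 80.1 FPKM in crypt epi and 137 ± 40.8 in villus epi, so it hardly differed there, and the EC difference exceeded the epi difference by 5.93 (SE 0.67, adjusted p = 5.35e-06). The rise of Sct in EC cells exceeded that in epi by 2.59 (SE 0.77, adjusted p = 0.013) and that of Glp1r by 3.57 (SE 0.84, adjusted p = 0.00309). The difference of Sstr2 was 1.90 higher in EC cells than in epi (SE 0.33, adjusted p = 0.000296).

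Tac1 and Ucn3 fell in EC cells while their low epi means were higher in the villus than in the crypt (8.61 ± 7.31 to 14.4 ± 2.34 and 0.165 ± 0.124 to 2.15 ± 0.467 FPKM), with interactions of -2.80 and -2.76 (adjusted p = 0.000148 and 3.49e-07). Tph1 and Chga also had negative interactions, -2.67 and -2.62 (adjusted p = 0.000142 and 1.46e-06), with Tph1 going from 1.57 ± 0.563 to 50.3 ± 26.8 FPKM in epi and Chga from 11.3 ± 2.11 to 68.4 ± 22.2. Reg4 differed by -4.03 on the log2 scale in epi and by -0.02 in EC cells (interaction 4.02, adjusted p = 7.64e-08). Mki67 fell less in EC than in epi (interaction 1.70, adjusted p = 0.000133), starting from a lower crypt level. For Cck (1.55, SE 1.19, adjusted p = 0.317) and Id1 (0.69, SE 0.56, adjusted p = 0.349) a difference between the cell types was not detectable with these libraries. Villus epi replicate 2 stood apart from its group, and without it the 10 calls were kept and the values of Cck and Id1 were 0.74 and 0.39.

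**Figure D5:**
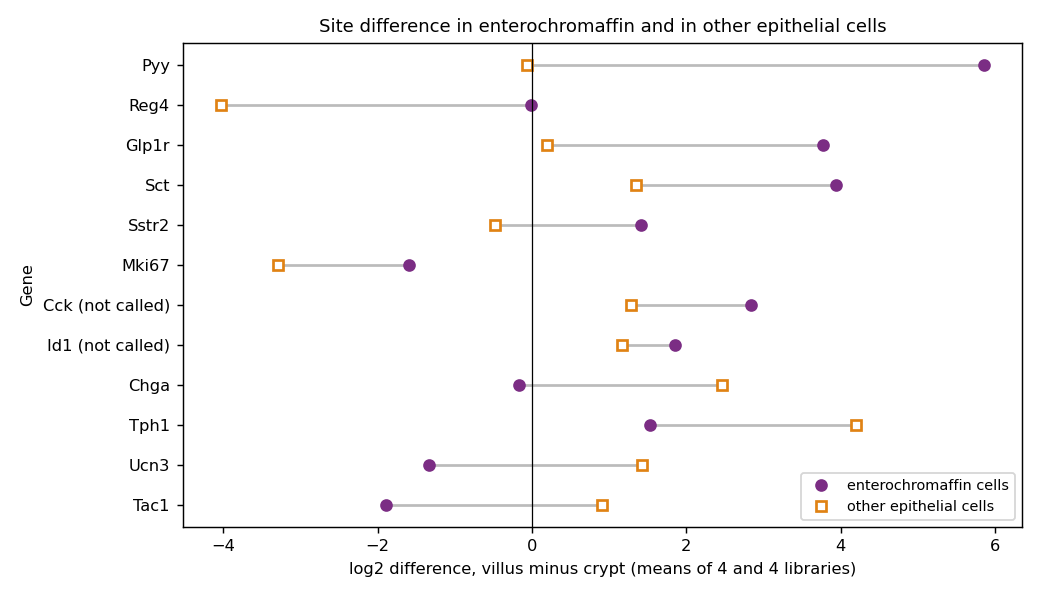
Log2 difference between villus and crypt (horizontal axis) in EC cells (filled circles) and in other epithelial cells (open squares) for 12 genes, each the difference of means of 4 and 4 libraries. Pyy and Glp1r are displaced in EC cells only, and Reg4 and Chga in epi only. Tac1 and Ucn3 go in opposite directions, and the difference between the cell types was not called for Cck and Id1.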

How the data were processed

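RNA from 5000 sorted cells per library was sequenced in 16 libraries (crypt EC, villus EC, crypt epi and villus epi, 4 each), and FPKM values per gene were used as deposited by the authors. Per the submitters' processing notes the tools include bcl2fastq 2.20, kallisto and sleuth, with the mm10 build. For the annotation release and any scaling the entry is: not given in the sources used here. The depth in reads is unknown, so values of low genes carry unequal and unknown counting error. Values were tested on log2(FPKM + 1) with limma 3.58.1 in R 4.3.3 (empirical Bayes with a mean-variance trend, two-sided, Benjamini-Hochberg adjustment over all genes tested) in the 8 EC libraries, for genes at 1 FPKM or more in at least 4 of them. The pseudocount understates changes of low genes. Called means an adjusted p below 0.05. The interaction of cell type and site used all 16 libraries, and is printed for 12 genes. Every adjusted p in the text comes from limma.

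Genes were named by rule: the 15 with the largest log2 difference in each direction among called genes with no overlap and a mean of at least 5 FPKM in the higher group, up to 5 called members of each of 44 gene lists, and 40 fixed genes. The text names a part of these, picked after results were seen. It also names genes outside the rule, among them Muc2, Zg16, Clca1, Spdef, Lyz1, C1qb, C1qc, Adgre1, Csf1r, Ddx3y and the collagen genes. Members and lists were chosen with earlier results of these data known. Of 1389 list members 1349 had a row, and 19954 of 20072 genes had a GENCODE vM21 position. Alternatives covered scaling, pseudocount, filter, variance trend, all 16 libraries, replicate blocks and leaving out each library, plus a term for Y-linked transcripts (Ddx3y at 5 FPKM or more) added after seeing the data. The code was tested on simulated data. Figures were drawn with Python 3.11.15 and matplotlib 3.10.9.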

Additional observations from a re-analysis of the deposited data

Results flagged for a closer look

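In 123 named genes and 2 EC groups of 4 libraries (246 sets of 4 values), 45 values lay so far from the other 3 that Dixon's test at the 95% level picked them out, where chance picks about 1 in 20 sets. Of these, 37 came from crypt EC replicate 1, the library with the lowest mean correlation with its group, and the only crypt EC library with Y-linked transcripts. The sets are not independent, since 1 unusual library enters all of them.

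Among these values, crypt EC replicate 1 was the lowest of its group, in FPKM, with Sct at 1280.4, Slc18a1 at 697, Chgb at 27309, Scg2 at 4.38, Scg3 at 53.3, Syt7 at 1.28, Snap25 at 173, Glp1r at 3.59, Sstr1 at 127 and Galr1 at 3.86. The same was true of the BMP targets Id1 (42.5), Id2 (116) and Id3 (130.5). It was also lowest in other genes called higher in villus EC, with Klf4 at 1.25, Ano1 at 0.708, Nt5e at 11.3, Apobec1 at 4.48, Slc15a1 at 0.465 and Sis at 60.3. Further such genes were Espn at 7.48, Agr2 at 248, Ctse at 0.379, Gsdma at 5.67, Hspb1 at 4.94 and Hbegf at 5.39. Gpx3 (500.0), Afp (619.9), Ambp (169) and Hmgcs1 (68.6) were lowest there too.

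In the other direction it was the highest crypt EC library for Olfm4 (1337 FPKM), Cd74 (629) and H2-Aa (194), and for Tac1 (6331), Slc6a4 (18.8), Bmp7 (12.1) and Kcnk2 (0.788). Ucn3 (504) was lowest in it.

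Villus EC libraries gave the other 8 values. Replicate 4 stood apart in Gip (24.9 FPKM), Ptprn2 (36.5) and Trpa1 (193), replicate 3 in Neurog3 (0.0592) and Lgr5 (1.04), replicate 1 in Apobec1 (32.0) and Vim (7.60), and replicate 2 in Mgst1 (2.91).

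For 10 of 12 genes the villus minus crypt difference was not the same in EC and in other epithelial cells, by the interaction term of a limma fit with an adjusted p below 0.05. Over all genes tested, 6050 of 14089 (42.9%) passed the same test. On the log2 scale, EC minus epi, the values were 5.93 for Pyy, 4.02 for Reg4, 3.57 for Glp1r, 2.59 for Sct, 1.90 for Sstr2 and 1.70 for Mki67. They were -2.80 for Tac1, -2.76 for Ucn3, -2.67 for Tph1 and -2.62 for Chga. In those 4 genes the epi libraries were higher in the villus, at levels well below those of EC cells.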

How the results depend on the processing

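Numbers of called genes, 2748 higher and 3759 lower (809 and 1215 at 2-fold or more), stayed within 1.5 times of these values under most alternatives. A fit of all 16 libraries called 1461 higher and 2221 lower, and 2684 and 3738 without villus epi replicate 2. Scaling to the same total gave 1798 higher beside 5413 lower, and a pseudocount of 5 gave 446 higher and 592 lower at 2-fold or more. Leaving out each EC library gave 2464 to 2762 higher and 3311 to 3689 lower, 752 to 876 and 1118 to 1269 at 2-fold or more. The interaction was passed by 5546 to 5810 genes without 1 of the EC libraries. When each of the 16 libraries was left out it ranged over 5546 to 8639 genes, the highest without villus epi replicate 2. Between fits 2 named genes changed sign, and neither was called in the main fit. Reg4 was at 0.040 with median-ratio scaling, 0.0023 with a replicate block by library number and 0.32 with the Y-linked term. It was at 0.0014, 0.05 and 0.05 without crypt EC replicate 2, 3 or 4 and 0.10, 0.03 and 0.02 without villus EC replicate 1, 2 or 3 (from -0.20 to 0.10 over all 8). Fev was at 0.41 without crypt EC replicate 1 and 0.11 without villus EC replicate 4 (from -0.66 to 0.41). Nts, also not called, was at 1.31 in the main fit but at -2.80 within the libraries without Y-linked transcripts. The causes were not tested. With a filter of 5 FPKM the T cell list had no member left. Counts and medians of the gene lists depended on the fit too. In the fit of all 16 libraries 32 of them moved and 100 did not, and with same-total scaling 29 and 103. In the fit of all 16 libraries antioxidant and iron genes were 2 higher and 7 lower, cholesterol genes 5 and 1, and serotonin genes 1 and 5. Moved means a count by more than 1.5 times, or a median by more than the spread between libraries.

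Deviations of libraries that share a title number correlated at 0.183, 0.0978, 0.00689 and 0.127, and the 2 pairs that share a library number at -0.148 and -0.0843, so the samples were not treated as paired. With a replicate block by title number 2754 genes were higher and 3643 lower (830 and 1219 at 2-fold or more), and 5835 passed the interaction. With a block by library number the counts were 2688 and 3681. Both blocks cost Ghrl its call (adjusted p = 0.0549 and 0.0539). The Y-linked term gave 2740 higher and 3666 lower. With depth unknown, no limit of detection could be given.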
